A study of Mus musculus with 28 samples.

Results

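The microRNA (miRNA) probe sets of a mouse gene expression array are described here across 28 arrays of embryonic stem (ES) cells. Members were all probe sets annotated with 1 gene symbol that begins with Mir and a digit or with Mirlet7, apart from 9 symbols that belong to the miR-302 cluster or the Dlk1-Dio3 locus (Mir302a, Mir302b, Mir302c, Mir302d, Mir367, Mir377, Mir382, Mir380 and Mir300). A symbol with several probe sets was kept once, as the brightest of them on average, and no filter on expression was applied. This gave 291 members of 19938 symbols, of which 287 were hairpins and 4 were host transcripts (Mir17hg, Mir99ahg, Mir100hg and Mir670hg).

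The series asked how hotspot mutations of DICER1 affect miRNA processing. Dicer-/- mouse ES cells carried a mutant DICER1, namely D1709A (4 arrays), D1709N (2), E1705K (3), D1810Y (3) or E1813Q (2), wild-type DICER1 (6 arrays) or eGFP (3 arrays). The untransduced Dicer-/- line, called Dicer-null below (3 arrays), and a Dicer+/+ line, called Dicer wild-type below (2 arrays), carried no transgene. D1709N, E1813Q and arrays 5 and 6 of wild-type DICER1 used the vector pLD-puro-PGKnvA, and all other transgenes used pLD-puro-ENvA. All transgene groups therefore share the Dicer-/- background, and the labels do not say how many clones or cultures each group holds.

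A miRNA is transcribed as a long primary transcript, cut by Drosha and Dgcr8 in the nucleus to a hairpin precursor, and cut by Dicer in the cytoplasm to a duplex with a 5-prime and a 3-prime strand. The mutated residues bind metal ions in the RNase IIIb domain. This domain of Dicer makes the incision on the 5-prime strand, and the RNase IIIa domain the incision on the 3-prime strand. The mature strand guides Argonaute proteins to messenger RNAs through its seed, bases 2 to 8. Many hairpins lie in clusters that are transcribed together, and the miR-17 to miR-92 cluster has 2 paralogues in mammals, miR-106a to miR-363 and miR-106b to miR-25. In ES cells these clusters are known for promoting proliferation, and let-7 miRNAs, held low by the RNA-binding protein Lin28a, are known for accompanying differentiation. Nothing in the labels says whether a probe set registers the primary transcript, the precursor or the mature strand, and these forms cannot be told apart here.

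Mature sequences were found for 261 of the 291 members in RefSeq (GRCm38.p6). The sequences that matter most for the results belong to paralogous clusters whose hairpins carry the same seeds. Those of 3 hairpins on chromosome X and 3 on chromosome 14 are shown first, with the seed in capitals.
miR-106a-5p: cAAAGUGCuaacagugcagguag
miR-20b-5p: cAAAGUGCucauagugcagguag
miR-363-3p: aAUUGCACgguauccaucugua
miR-17-5p: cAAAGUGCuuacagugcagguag
miR-20a-5p: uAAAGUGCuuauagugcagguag
miR-19a-3p: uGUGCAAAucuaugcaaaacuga
The sequences of miR-106a and miR-20b (chromosome X) share the seed AAAGUGC with those of miR-17 and miR-20a (chromosome 14). The let-7 members shown next share the seed GAGGUAG, which 9 members carry in the mature sequences found.
let-7f-5p: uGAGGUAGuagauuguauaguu
let-7d-5p: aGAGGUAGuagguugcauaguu
miR-98-5p: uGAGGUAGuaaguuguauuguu
let-7e-5p: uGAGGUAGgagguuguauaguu
Pairs of hairpins from different loci can give the same mature miRNA while the rest of the hairpin differs. The following 3 pairs are shown because their members behaved differently between the mutants and wild-type DICER1, with the shared mature part in capitals. They lie on chromosomes 14 (Mir19b-1, plus strand), X (Mir19b-2, minus, and Mirlet7f-2, plus), 13 (Mirlet7f-1 and Mir7-1, minus) and 7 (Mir7-2, plus).
Mir19b-1: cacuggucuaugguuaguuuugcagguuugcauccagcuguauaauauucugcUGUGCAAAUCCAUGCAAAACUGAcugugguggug
Mir19b-2: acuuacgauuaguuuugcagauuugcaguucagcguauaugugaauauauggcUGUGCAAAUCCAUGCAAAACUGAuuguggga
Mirlet7f-1: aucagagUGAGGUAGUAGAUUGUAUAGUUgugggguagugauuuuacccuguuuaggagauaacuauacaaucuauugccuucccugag
Mirlet7f-2: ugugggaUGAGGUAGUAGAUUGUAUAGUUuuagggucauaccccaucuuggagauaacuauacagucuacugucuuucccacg
Mir7-1: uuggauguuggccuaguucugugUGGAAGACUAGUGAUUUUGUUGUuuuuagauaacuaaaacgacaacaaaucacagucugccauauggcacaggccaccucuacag
Mir7-2: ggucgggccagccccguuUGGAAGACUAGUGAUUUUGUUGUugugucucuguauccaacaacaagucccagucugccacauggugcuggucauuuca

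Values are log2 expression as deposited, a difference of 1 being a doubling, and array medians lay between 7.14 and 7.27. Dicer1 measured between 8.84 and 9.45 in the 26 Dicer-/- arrays, against 10.65 and 10.72 in the Dicer wild-type arrays. Its range was 9.26 to 9.44 with wild-type DICER1, against 9.28 to 9.45 with eGFP, so these values do not show expression of the wild-type transgene. All 8 ES cell markers (such as Pou5f1, Nanog and Sox2) lay above the 30th percentile of all symbols (6.42) in every group, with array means of 11.78 to 12.27, and the means of 12 fibroblast or feeder markers lay between 6.19 and 6.77. The feeder means of wild-type DICER1 arrays (6.63 to 6.77) reached highest, against 6.21 to 6.41 in eGFP arrays. Those of D1709N (6.60 to 6.67) and E1813Q (6.64 to 6.67) overlapped the wild-type DICER1 range. The means of 5 trophoblast markers were highest in the PGKnvA mutants (8.02 to 8.33), against 7.53 to 7.98 in the other mutant arrays and 7.75 to 7.87 in wild-type DICER1. In wild-type DICER1 against eGFP, 6 feeder markers were called higher and 1 lower, and 4 trophoblast markers higher and 1 lower, while 44.2% of all symbols were called. Of the 8 ES cell markers, 2 were called higher and 6 lower in the mutants against wild-type DICER1 (median -0.16), and 1 higher and 5 lower in eGFP against Dicer-null (median -0.12). Of 5 endoderm markers 0 were higher and 3 lower in the mutants against wild-type DICER1 (median -0.17). Of all symbols, 46.1% were called in the mutants against wild-type DICER1 and 34.3% in eGFP against Dicer-null. The part of these lists in the results was not tested. Members were dim as a class: 109 of 291 had a mean at or above the 30th percentile. Their median within-group standard deviation was 0.080 to 0.133 by group, against 0.052 to 0.092 for all symbols, and it was the larger in every group. How far this spread lowers the share of members called was not tested. The deposited values obey exact relations between arrays that set apart array 4 of D1709A and wild-type DICER1 and the PGKnvA arrays (found after the data were examined). Where mutants are set against wild-type DICER1, differences are therefore also given within array set 1 (9 mutant and 3 wild-type arrays), set 2 (array 4 of each, 1 and 1) and set 3 (4 and 2 PGKnvA arrays). The comparisons below share arrays with one another, so their values are set side by side and are not independent.

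The mutants were first set against wild-type DICER1, which asks what the mutations change when a transgene is present. Hairpins of the miR-106a to miR-363 cluster were higher in the mutants, by up to 3.07-fold for Mir363, while those of the miR-17 to miR-92 cluster and several let-7 hairpins were lower. A member was called at an adjusted p under 0.05 over all symbols. By this rule 28 members were higher and 37 lower (9.62% and 12.7% of members), against 24.1% and 22.1% of all symbols, and in either direction 22.3%, against 46.1% of all symbols. The share of members called was thus below that of symbols at large in both directions. With an added minimum difference of 0.5, 4 were higher and 11 lower (1.37% and 3.78%, against 2.91% and 2.32% of symbols, and in either direction 5.15%, against 5.23%). All mutant arrays lay above all wild-type DICER1 arrays in 4 members and below them in 12, which is 1.37% and 4.12%, against 6.43% and 5.83% of symbols. The median difference was -0.02 over members and -0.0050 over all symbols, and the median size was 0.067 over members, against 0.109 over all symbols. Of the called members, 22 of the 28 higher ones lay below the 30th percentile, against 12 of the 37 lower ones and 182 of all 291 members. Without the PGKnvA arrays 15 were called higher and 32 lower. Of the 65 called members, 50 had one sign in all 3 array sets. The calls were made on these same arrays, and the sets are tied by the exact relations. This count is therefore a description and not a replication.

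**Figure D1:**
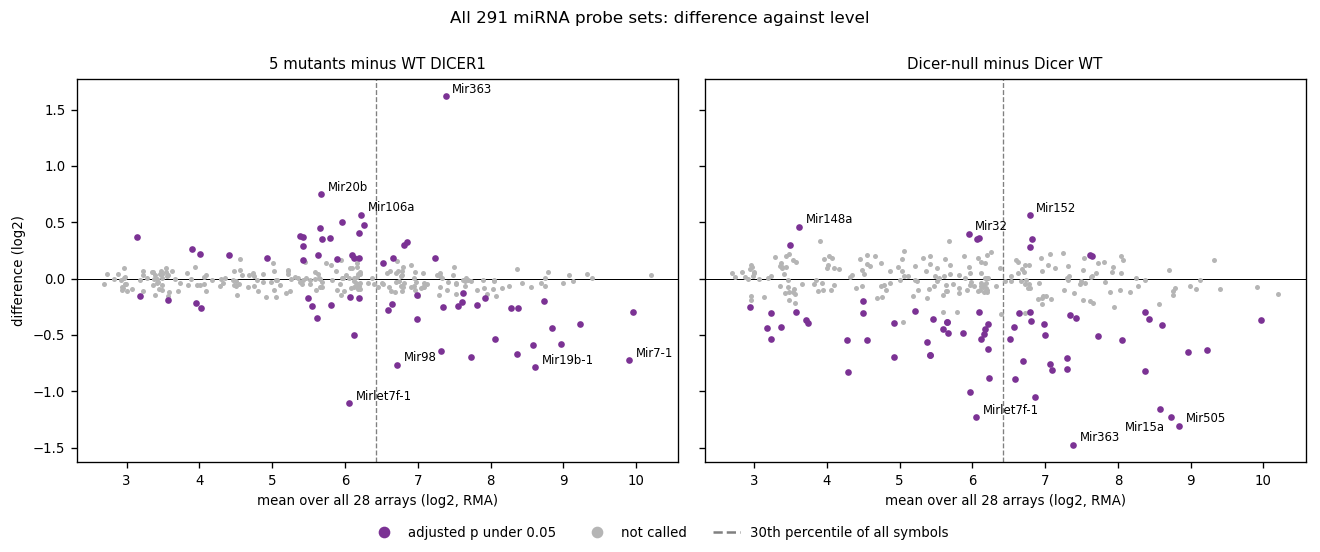
Each point is 1 of the 291 miRNA probe sets, with its mean over all 28 arrays on the x axis (log2) and its difference on the y axis (log2), for the mutants minus wild-type DICER1 (left) and Dicer-null minus Dicer wild-type (right). Purple points passed an adjusted p under 0.05 and grey ones did not, and the dashed line is the 30th percentile of all symbols (6.42). Mir363 was the highest of the called members on the left (1.62) and the lowest on the right (-1.47).

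Mir363 lies at the end of the miR-106a to miR-363 cluster and carries the seed AUUGCAC of the miR-25 and miR-92 family. It measured 7.99, 7.80, 7.74 and 8.03 in D1709A, 8.22 and 8.10 in D1709N, 8.06, 7.81 and 8.18 in E1705K, 8.73, 8.53 and 8.74 in D1810Y, and 8.55 and 8.57 in E1813Q. The wild-type DICER1 arrays gave 6.70, 6.56, 6.79, 6.50, 6.62 and 6.66. Every mutant array thus exceeded every wild-type DICER1 array. The difference was 1.62 (standard error 0.067, adjusted p = 1.64e-16), and it was 1.49, 1.53 and 1.72 in array sets 1, 2 and 3. By mutant it was 1.25 for D1709A, 1.52 for D1709N, 1.38 for E1705K, 2.03 for D1810Y and 1.92 for E1813Q. The eGFP arrays gave 6.87, 6.45 and 6.84, the Dicer-null arrays 5.69, 5.82 and 5.75, and the Dicer wild-type arrays 7.08 and 7.37. The mutant cells therefore lay above all 4 other groups.

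All 5 measured hairpins of this cluster rose in the mutants relative to wild-type DICER1, with a median difference of 0.57. Mir20b had a lowest, median and highest value of 5.63, 6.08 and 6.45 over the 14 mutant arrays, against 5.05, 5.36 and 5.55 over the 6 wild-type DICER1 arrays, and the groups did not overlap (difference 0.75, standard error 0.091, adjusted p = 1.03e-07). Mir106a gave 6.44, 6.66 and 7.01 in the mutants, against 5.96, 6.13 and 6.22 in wild-type DICER1, again without overlap (0.57, standard error 0.058, adjusted p = 4.33e-09). Mir20b and Mir106a share their seed with miR-17. Mir19b-2 gave 5.58, 6.00 and 6.49 against 5.37, 5.57 and 5.75 (0.45, adjusted p = 2.98e-05), and Mir92-2 gave 5.64, 6.04 and 6.31 against 5.36, 5.66 and 5.79 (0.36, adjusted p = 6.44e-05). In these last 2 the lowest mutant arrays, which were D1709A, fell within the wild-type range. Each of the 5 hairpins had a positive difference in all 3 array sets. Apart from Mir363, their means lay below the 30th percentile of all symbols.

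The paralogous miR-17 to miR-92 cluster moved the other way. All 5 measured hairpins (Mir17, Mir18, Mir19a, Mir20a and Mir19b-1) fell in the mutants relative to wild-type DICER1, with a median difference of -0.67. Mir19b-1 gave a lowest, median and highest value of 8.09, 8.51 and 8.84 in the mutants, against 9.05, 9.23 and 9.29 in wild-type DICER1, without overlap (-0.79, standard error 0.057, adjusted p = 7.60e-12). Mir20a gave 7.03, 7.63 and 8.07, against 8.12, 8.19 and 8.30 (-0.69, standard error 0.065, adjusted p = 1.05e-09), and Mir19a gave 7.78, 8.40 and 8.67, against 8.75, 8.88 and 9.08 (-0.67, standard error 0.057, adjusted p = 1.76e-10). The groups did not overlap in these 2 either. The host transcript Mir17hg, from which the cluster is cut, gave 8.75, 8.95 and 9.30 in the mutants, against 9.38, 9.55 and 9.70 in wild-type DICER1 (-0.58, standard error 0.045, adjusted p = 4.48e-11). The groups did not overlap in the host transcript.

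The size of this fall differed among the mutants. The D1709N and E1813Q arrays were the lowest of the mutants in Mir20a (7.03 to 7.19), against 7.52 to 8.07 in the other mutant arrays, and likewise in Mir19a, where they lay at 7.78 to 8.10. Both mutants used the PGKnvA vector, so mutation and array set cannot be told apart among the mutants. The PGKnvA wild-type arrays (8.20 and 8.18 for Mir20a) lay with the other wild-type ones. The deposited wild-type means of the 2 vectors are, however, equal for every probe set (within 7.5e-05). Their agreement therefore cannot show whether the vector or array set has an effect. Within sets 1, 2 and 3 the difference of Mir20a was -0.37, -0.79 and -1.11, and that of Mir19a -0.40, -0.89 and -0.97. Mir18 (-0.41, adjusted p = 1.16e-07) and Mir17 (-0.36, adjusted p = 6.17e-05) fell less, with overlapping arrays. Without the PGKnvA arrays the difference of Mir17 was -0.18 (adjusted p = 0.0798), which ends its call.

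**Figure D2:**
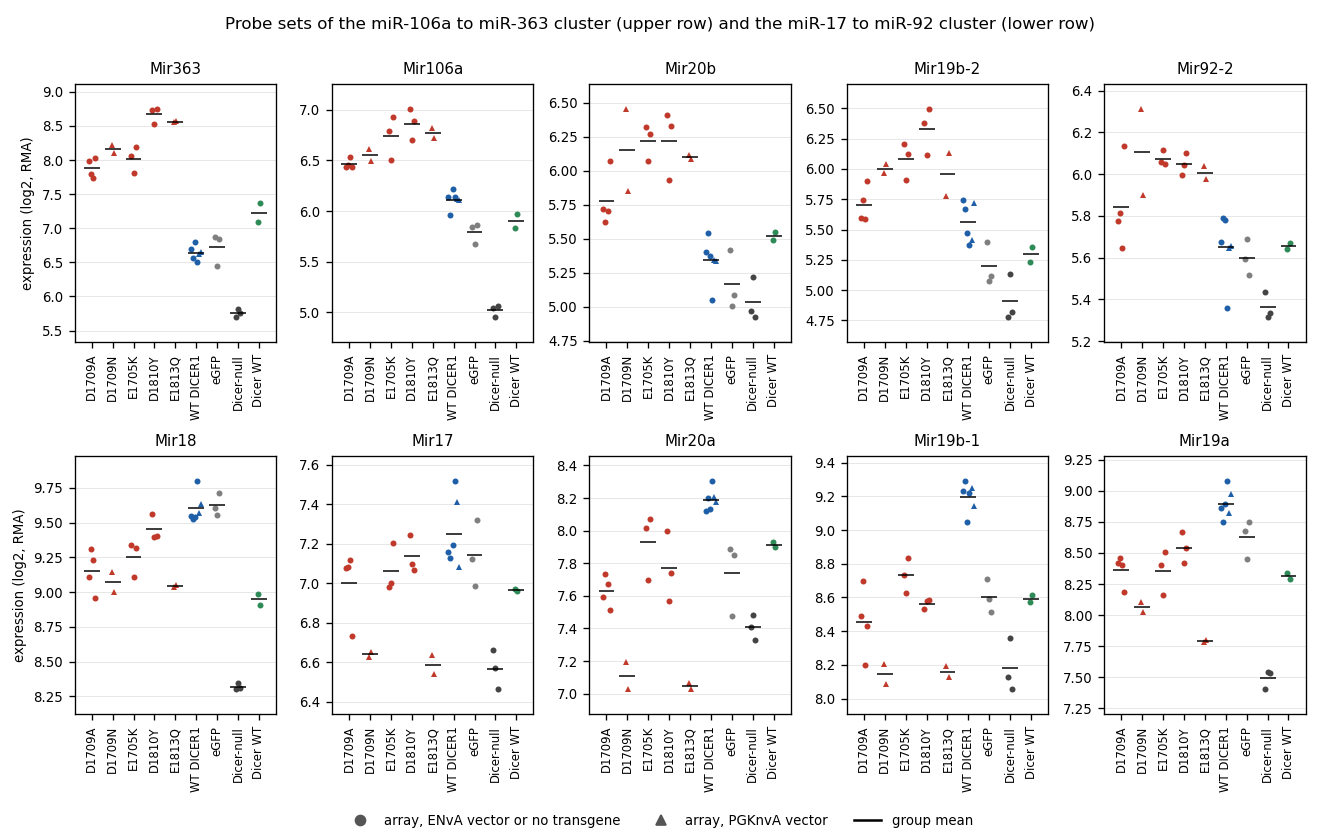
Level of each hairpin (y axis, log2 expression) in every array, by group (x axis), for the 5 measured hairpins of the miR-106a to miR-363 cluster (upper row) and the 5 of the miR-17 to miR-92 cluster (lower row). Circles are arrays with the ENvA vector or no transgene, triangles are PGKnvA arrays, and bars are group means. In the upper row the mutants (red) lie above wild-type DICER1 (blue), as in Mir363 (7.74 to 8.74 against 6.50 to 6.79), and in the lower row they lie mostly below it, as in Mir19b-1 (8.09 to 8.84 against 9.05 to 9.29).

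The third paralogous cluster, miR-106b to miR-25, showed no call between the mutants and wild-type DICER1. Its differences were -0.02 for Mir106b, -0.06 for Mir93 and 0.04 for Mir25. Their 95% intervals were -0.11 to 0.07, -0.16 to 0.03 and -0.06 to 0.14. In the PGKnvA arrays Mir93 was nevertheless lower in the mutants (7.26 and 7.38 in D1709N and 7.40 and 7.48 in E1813Q, against 7.66 and 7.66 in wild-type DICER1), with a difference of -0.28 in set 3 and 0.09 in set 1. Of the 6 members with the seed AAAGUGC, 2 thus rose (Mir106a, Mir20b), 2 fell (Mir17, Mir20a) and 2 were not called (Mir93, Mir106b).

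Of the 10 let-7 hairpins, 5 fell in the mutants relative to wild-type DICER1 (Mirlet7f-1, Mir98, Mirlet7d, Mirlet7e and Mirlet7i) and 2 rose (Mirlet7c-1 and Mirlet7a-2). Mirlet7f-1 measured 5.87, 6.14, 5.85 and 5.96 in D1709A, 5.66 and 5.88 in D1709N, 5.86, 5.57 and 5.90 in E1705K, 6.13, 5.63 and 5.90 in D1810Y, and 6.04 and 5.72 in E1813Q. The wild-type DICER1 arrays gave 7.04, 6.82, 7.03, 6.95, 6.84 and 7.07. No mutant array reached the lowest wild-type array, and the difference of -1.10 (standard error 0.086, adjusted p = 3.29e-11) was -1.09, -0.98 and -1.13 in sets 1, 2 and 3. The mutant range of 5.57 to 6.14 included 2 of the eGFP arrays (5.86, 5.31 and 5.82) and lay above all Dicer-null arrays (5.31, 5.08 and 5.37).

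Mirlet7d, which lies in the same cluster on chromosome 13, gave a lowest, median and highest value of 8.09, 8.39 and 8.70 in the mutants, against 8.93, 8.98 and 9.01 in wild-type DICER1 (-0.59, standard error 0.057, adjusted p = 1.91e-09). Mirlet7a-1, the remaining measured hairpin of that cluster, was not called (-0.09, 95% interval -0.21 to 0.04, adjusted p = 0.247). Mir98, a let-7 relative on chromosome X, gave 6.00, 6.73 and 6.92 against 7.30, 7.35 and 7.56 (-0.76, standard error 0.072, adjusted p = 1.45e-09). The mutant and wild-type arrays of Mirlet7d and Mir98 did not overlap. Mirlet7e (-0.24, adjusted p = 6.89e-06) did not overlap either, while Mirlet7i (-0.25, adjusted p = 0.00186) did. The rises were small and lay at low levels: Mirlet7c-1 by 0.21 (adjusted p = 0.0180) and Mirlet7a-2 by 0.21 (adjusted p = 0.0134), each with overlapping arrays. Mirlet7c-1 was not called when D1709N array 2 (adjusted p = 0.0508), wild-type DICER1 array 2 (0.0593) or wild-type DICER1 array 6 (0.135) was left out, and Mirlet7a-2 was not called without wild-type DICER1 array 6 (0.0514). Without the PGKnvA arrays Mirlet7c-1 (0.17, adjusted p = 0.0865), Mirlet7a-2 (0.12, adjusted p = 0.145) and Mirlet7i (-0.18, adjusted p = 0.0623) were not called.

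**Figure D3:**
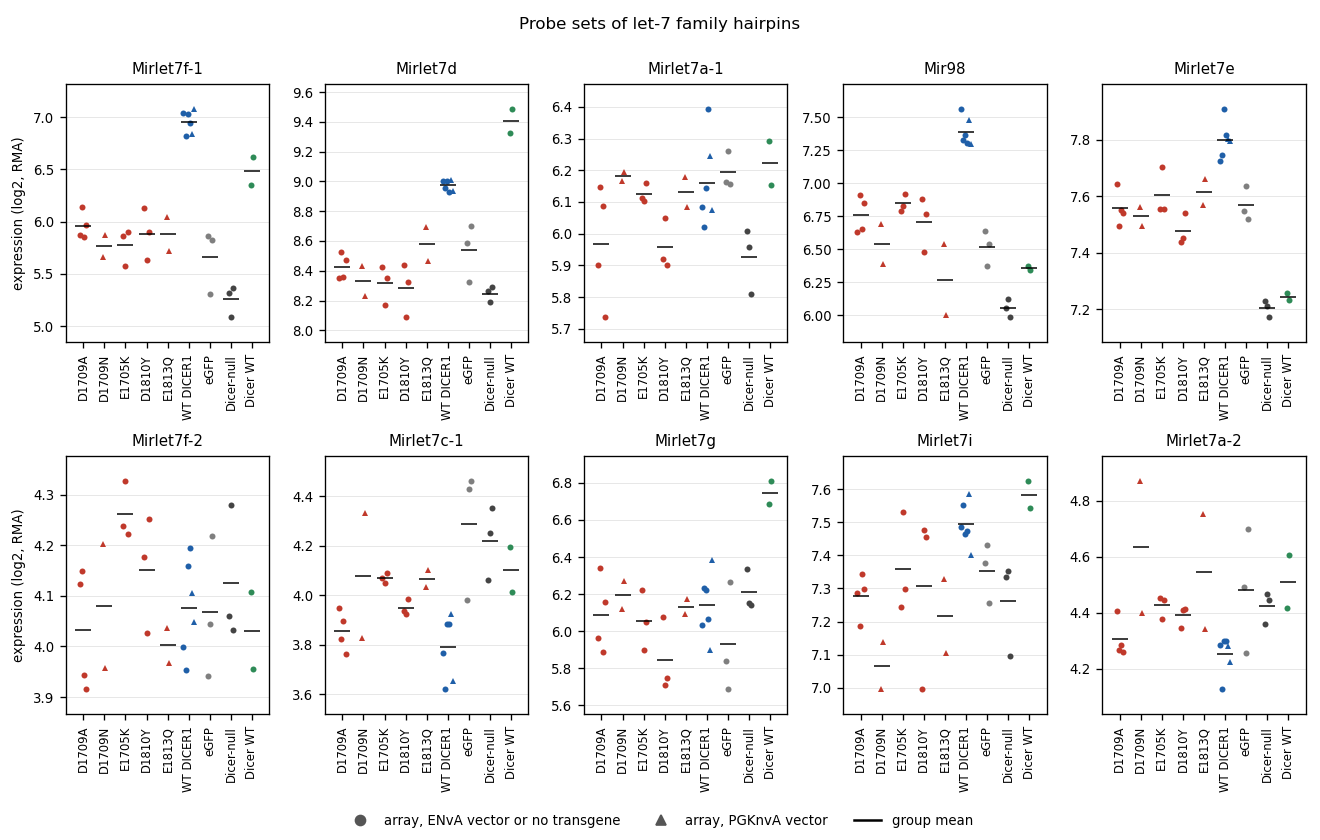
Level of the 10 let-7 family hairpins (y axis, log2 expression, a scale of its own for each) in every array, by group (x axis), with circles for ENvA or untransduced arrays, triangles for PGKnvA arrays and bars for group means. Mirlet7f-1, Mirlet7d, Mir98 and Mirlet7e are highest among the transgene groups in wild-type DICER1, and in Mirlet7f-1 the mutants reach 6.14 at most, against a lowest wild-type DICER1 array of 6.82.

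Among the 261 members with a mature sequence in RefSeq, hairpins listed with an identical one formed 24 pairs, made up of 45 hairpins. Pairs that involve a member without such a sequence, such as Mirlet7a-2, are not counted. Between the mutants and wild-type DICER1, both members of a pair were called in the same direction in 0 pairs, in opposite directions in 1, 1 member alone was called in 5, and neither in 18. Singly, 22.3% of members and 46.1% of all symbols were called there. Whether the pair counts depart from what such shares give was not tested. In wild-type DICER1 against eGFP, both Mir16-1 (-0.41, adjusted p = 4.02e-04) and Mir16-2 (-0.38, adjusted p = 0.00628) fell. In that comparison both Mir19b-1 (0.59) and Mir19b-2 (0.37, adjusted p = 0.0146) rose. So did both Mir7-1 (0.70) and Mir7-2 (0.25, adjusted p = 0.0206), and both Mir129-1 (0.30) and Mir129-2 (0.20, adjusted p = 0.0437). The results that follow are again for the mutants against wild-type DICER1. The pair called in opposite directions was Mir19b-1 (-0.79) and Mir19b-2 (0.45), which lie in the 2 paralogous clusters and share miR-19b-3p, while their hairpins are 75.0% identical in a global alignment. Mirlet7f-1 (-1.10) and Mirlet7f-2 (0.03, adjusted p = 0.722) share let-7f-5p in hairpins that are 72.2% identical. Mir7-1 (-0.72) and Mir7-2 (-0.07, adjusted p = 0.318) share miR-7a-5p in hairpins that are 68.8% identical. Probe sequences were not used here, so how far a probe set also binds its paralogue was not tested.

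Mir7-1 was the member with the smallest adjusted p after Mir363. Its lowest, median and highest values were 9.47, 9.77 and 9.85 in the mutants, against 10.39, 10.43 and 10.49 in wild-type DICER1. The 2 groups were separated by more than the range of either (-0.72, standard error 0.039, adjusted p = 2.38e-14), and the eGFP arrays (9.70, 9.71 and 9.82) lay within the mutant range. Mir677 had the same order of groups, with 7.83, 7.98 and 8.12 in the mutants, against 8.43, 8.53 and 8.56 in wild-type DICER1 (-0.54, standard error 0.047, adjusted p = 3.37e-10) and 7.91, 7.70 and 8.05 in eGFP. Mir30e, in contrast, was lowest in the PGKnvA mutants (6.37 and 6.32 in D1709N, 6.61 and 6.44 in E1813Q), against 7.02 to 7.52 in the other mutant arrays and 7.45 to 7.69 in wild-type DICER1. Its overall difference was -0.64 (standard error 0.054, adjusted p = 1.43e-10), made up of -0.27, -0.67 and -1.12 in sets 1, 2 and 3.

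Further members rose by amounts that differed among the mutants and array sets. Mir130a gave 5.60 to 6.04 in D1709A, 6.39 and 6.69 in D1709N, 6.04 to 6.41 in E1705K, 5.42 to 5.82 in D1810Y, and 6.98 and 6.83 in E1813Q, against 5.55 to 5.94 in wild-type DICER1 (difference 0.50, adjusted p = 4.36e-06). Without the PGKnvA arrays it was 0.17 (adjusted p = 0.161), which ends the call, and it was 0.26, -0.34 and 1.0 in sets 1, 2 and 3. Mir200b (0.47, standard error 0.082, adjusted p = 2.25e-05) was 0.56, -0.29 and 0.55 in the same sets. Mir713 (0.40, adjusted p = 2.68e-04) and Mir717 (0.37, adjusted p = 3.79e-04) completed the 8 largest rises, and all 4 had overlapping arrays. Mir15a was called lower (-0.20, adjusted p = 3.31e-04), with -0.47 in set 1, 0.04 in set 2 and 0.09 in set 3.

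Clusters and families other than these moved little between the mutants and wild-type DICER1. Of the 13 clusters with 3 or more members, which held 76 hairpins, 4 had a median difference beyond 0.1: the 3 described above and the 4 hairpins within Sfmbt2, an imprinted gene on chromosome 2. In the Sfmbt2 group Mir297b (0.32, adjusted p = 7.63e-04), Mir466 (0.37, adjusted p = 5.76e-05) and Mir669c (0.37, adjusted p = 0.00602) rose, and Mir669b gave 0.05. The mutants differed in this group: in Mir297b E1705K gave 7.63, 7.47 and 7.49, against 6.60 to 6.96 in wild-type DICER1, while D1709N gave 6.36 and 6.87. The largest cluster, 26 hairpins of the Dlk1-Dio3 imprinted locus that include Mir134, Mir666 and Mir667, had 0 called higher and 4 called lower with a median of -0.02. The nearby group of 8 with Mir127 and Mir673 had 0 called, as had the clusters around Mir188, Mir450-1, Mir463 and Mir23a.

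**Figure D4:**
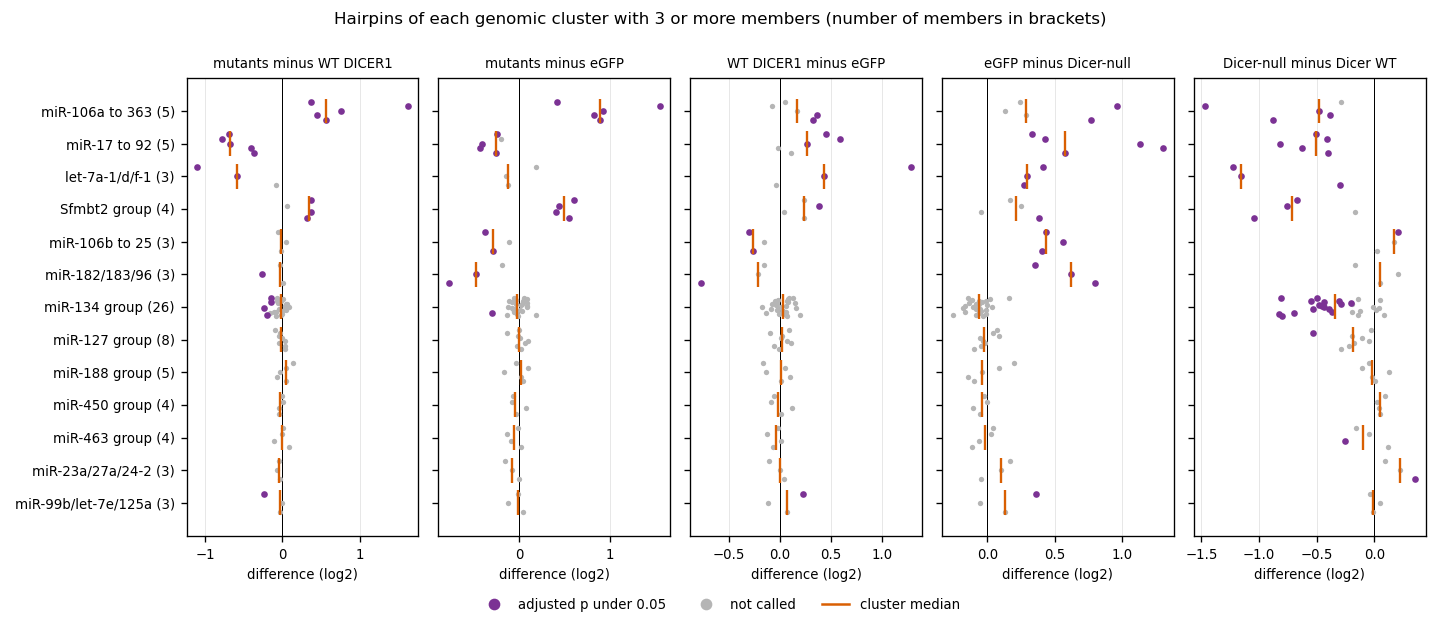
Difference of each hairpin (x axis, log2) in every genomic cluster with 3 or more members (y axis, with the number of members), for 5 comparisons. Purple points passed an adjusted p under 0.05, grey points did not, and the orange bar is the cluster median. In the first panel the miR-106a to miR-363 hairpins lie to the right of 0 (median 0.57) and those of miR-17 to miR-92 to the left (median -0.67), and in the last panel both clusters lie to the left (medians -0.48 and -0.51).

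Intragenic hairpins were compared with the genes whose annotated span holds them on the same strand. There were 97 such pairs of 96 hairpins and 76 host genes. A further 14 pairs, those of Sfmbt2 among them, were left out of the counts because the strand of the hairpin could not be checked. The 5 measured miR-17 to miR-92 hairpins and their host transcript Mir17hg were not among the pairs, and enter no count or correlation here. All 5 fell in the mutants relative to wild-type DICER1, as did Mir17hg (-0.58). Relative to eGFP, Mir17hg gave -0.0039, beside falls of Mir18 (-0.43) and Mir19a (-0.40). Between the mutants and wild-type DICER1, 16 pairs had a called hairpin, and the host was called in the same direction in 5, in the opposite direction in 3 and not called in 8, while 46.1% of all symbols were called. The hosts of 4 hairpins that fell by over 0.5 differed little. Hnrnpk, host of Mir7-1, gave 0.01 (adjusted p = 0.672), Atp5b, host of Mir677, gave -0.02 (0.284), and Nfyc, host of Mir30e, gave -0.09 (0.195). Huwe1, host of Mir98, rose by 0.05 (adjusted p = 0.0224) while its hairpin fell. Sfmbt2 was 0.80 higher (standard error 0.058, adjusted p = 9.09e-12), and 2610318N02Rik, which holds Mir301b, was 0.64 higher (adjusted p = 5.97e-19), beside 0.30 for that hairpin and 0.05 for Mir130b, which it also holds. Across the 97 pairs the correlation of hairpin and host differences was 0.076, given as a description, since pairs share hosts and all share the same arrays. For the mutants set against eGFP it was 0.394, with the host called in the same direction in 12 of 15 pairs with a called hairpin and in the opposite direction in 0, while 39.4% of all symbols were called. Among these 12, Mcm7, Dleu2 and Mir100hg each stand for 2 hairpins.

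**Figure D5:**
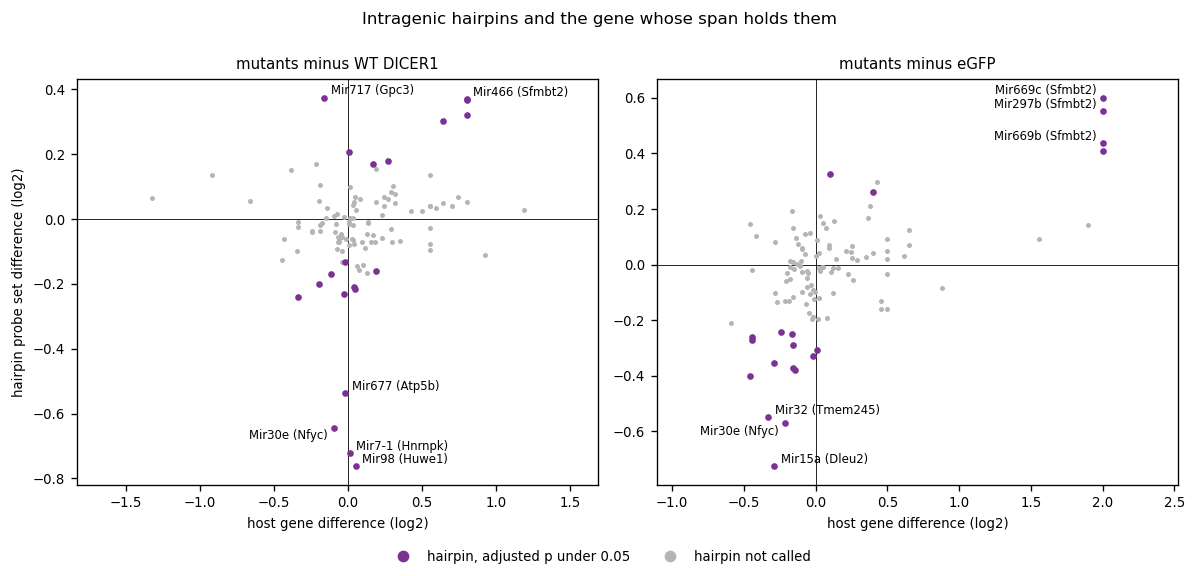
Difference of each intragenic hairpin (y axis, log2) against that of its host gene (x axis, log2), for the mutants minus wild-type DICER1 (left) and the mutants minus eGFP (right), with purple for hairpins that passed an adjusted p under 0.05 and grey for the others. The miR-17 to miR-92 hairpins and Mir17hg are not plotted. On the left, Mir98, Mir7-1, Mir30e and Mir677 lie low (-0.76 to -0.54) above hosts near 0, and on the right the 4 Sfmbt2 hairpins, which are among 14 plotted pairs whose strand was not checked, lie at a host difference of 2.01.

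Wild-type DICER1 was next set against eGFP, which asks what differs with the transgene labelled wild-type DICER1 in Dicer-/- cells. Mirlet7f-1, Mir98 and the host transcript Mir17hg were among the members called higher with wild-type DICER1, and Mir181b-2, Mir200b, Mir130a and Mir182 among those called lower. There were 25 members called higher and 34 lower (8.59% and 11.7%), against 23.1% and 21% of all symbols, and in either direction 20.3%, against 44.2%. With the minimum difference of 0.5 these were 8 and 10 (2.75% and 3.44%, against 6.47% and 7.37%). Above the 30th percentile, where 109 of all 291 members lay, 18 were called higher and 10 lower. The median difference was 0.0013 over members.

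Mirlet7f-1, whose arrays are listed above, rose by 1.29 relative to eGFP (standard error 0.13, adjusted p = 5.04e-09), and its wild-type DICER1 arrays all exceeded the eGFP ones. Mir98 (0.87, adjusted p = 2.52e-07), Mir7-1 (0.70, adjusted p = 1.89e-10), Mir677 (0.63, adjusted p = 4.98e-08), Mir19b-1 (0.59, adjusted p = 2.22e-06), Mir505 (0.58, adjusted p = 5.06e-04), Mir17hg (0.57, adjusted p = 1.16e-07) and Mir697 (0.56, adjusted p = 4.66e-06) followed. Of the 9 let-7 members with the seed GAGGUAG, 4 rose (Mirlet7f-1, Mir98, Mirlet7d by 0.44 and Mirlet7e by 0.23) and Mirlet7c-1 fell by 0.50. Of the miR-17 to miR-92 hairpins, Mir19b-1, Mir20a (0.45) and Mir19a (0.27) rose, and Mir17 and Mir18 gave 0.11 and -0.02. Leaving out eGFP array 2 (0.18, adjusted p = 0.126) or wild-type DICER1 array 4 (0.21, adjusted p = 0.0528) ended the call of Mir19a. In the miR-106a to miR-363 cluster Mir106a (0.32) and Mir19b-2 (0.37) rose, the second of them not without eGFP array 2 (adjusted p = 0.0726), eGFP array 3 (0.0668) or wild-type DICER1 array 1 (0.0564), and Mir363 gave -0.08 (adjusted p = 0.589).

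The largest fall with wild-type DICER1 was that of Mir181b-2, a miR-181 hairpin on chromosome 2. It measured 5.94, 5.78, 5.98, 5.98, 5.84 and 6.00 in wild-type DICER1, against 7.63, 7.21 and 7.49 in eGFP. The difference was -1.52 (standard error 0.091, adjusted p = 1.83e-13), and the Dicer-null arrays gave 6.12, 6.16 and 6.20, and the eGFP arrays lay above those of every other group. Of the 6 miR-181 members, 3 fell relative to eGFP, with a family median of -0.17. Mir200b (-1.12, adjusted p = 2.58e-08), Mir130a (-0.87, adjusted p = 7.31e-07), Mir205 (-0.82, adjusted p = 1.81e-07), Mir182 (-0.78, adjusted p = 1.43e-05), Mir32 (-0.72, adjusted p = 2.42e-05), Mir196a-1 (-0.55, adjusted p = 5.18e-05) and Mir15a (-0.53, adjusted p = 1.88e-07) also fell. Mir106b (-0.27, adjusted p = 0.00155) and Mir93 (-0.31, adjusted p = 3.86e-04) fell together with their host Mcm7 (-0.19, adjusted p = 2.30e-05), a DNA replication helicase subunit.

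The mutants were also set against the same eGFP arrays. Here 14 members were called higher and 41 lower (4.81% and 14.1%), against 21.6% and 17.8% of all symbols, and in either direction 18.9%, against 39.4%. The arrays did not overlap in 5 higher and 14 lower members (1.72% and 4.81%, against 11.2% and 10.4%). When eGFP array 2 was left out, 22 were called higher. With the minimum difference of 0.5 there were 6 and 8 (2.06% and 2.75%, against 4.56% and 4.91%). All 5 hairpins of the miR-106a to miR-363 cluster rose, namely Mir363 (1.54, standard error 0.099, adjusted p = 1.08e-12), Mir20b (0.92), Mir106a (0.89), Mir19b-2 (0.82) and Mir92-2 (0.41), and all 4 Sfmbt2 hairpins rose, by 0.41 (Mir466) to 0.60 (Mir669c). Sfmbt2 itself rose by 2.01. Mir669b (0.44) lost its call without eGFP array 2 (0.40, adjusted p = 0.0534). Together these 9 hairpins made up most of the 14 called higher.

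Of the miR-17 to miR-92 hairpins, Mir18 (-0.43, adjusted p = 2.26e-05) and Mir19a (-0.40, adjusted p = 2.76e-04) fell relative to eGFP. Mir17 (-0.26, adjusted p = 0.0417) and Mir20a (-0.24, adjusted p = 0.0449) passed the threshold narrowly, and their calls were lost when any of 8 single arrays (Mir17) or 9 (Mir20a) was left out. The highest adjusted p was 0.275 for Mir17 without eGFP array 3 and 0.261 for Mir20a without eGFP array 1. The other arrays without which Mir17 was not called were eGFP array 1, D1709N array 1, E1705K arrays 1 and 2, D1810Y arrays 2 and 3 and E1813Q array 2. Those for Mir20a were eGFP array 3, D1709A array 1, D1709N array 2, E1705K array 2, D1810Y arrays 2 and 3 and E1813Q arrays 1 and 2. Without the PGKnvA arrays Mir20a gave 0.04 and Mir17 gave -0.07. Mir17hg gave -0.0039 (adjusted p = 0.974). The let-7 members with the seed GAGGUAG had 0 called higher and 1 lower, Mirlet7c-1 (-0.29, adjusted p = 0.0369, lost without eGFP arrays 2 or 3, D1709N array 1 or E1813Q array 1, with a highest adjusted p of 0.232), with a family median of -0.01, beside a median of 0.21 for wild-type DICER1 relative to eGFP. The largest falls were again those of Mir181b-2 (-1.33, adjusted p = 1.45e-12), Mir182 (-0.77), Mir15a (-0.73), Mir200b (-0.65) and Mir205 (-0.61), followed by Mir30e (-0.57), Mir32 (-0.55) and Mir196a-1 (-0.55). These share the eGFP arrays with the falls described for wild-type DICER1.

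The parental lines were compared next, Dicer-null with Dicer wild-type. More members were called lower than higher in the Dicer-null line, 10 higher and 63 lower (3.44% and 21.6%), against 22.4% and 19.8% of all symbols, and in either direction 25.1%, against 42.2%. The share called lower was close to that of all symbols, and the share called higher was below it. With the minimum difference of 0.5 there were 1 and 31 (0.344% and 10.7%, against 10.5% and 7.4%). When arrays were centred on their medians, which adds 0.08 to each difference, 21 were higher and 47 lower, so 30.9% of calls were higher, against 13.7% without centring. The higher calls also rested on single arrays, numbering 6 without Dicer-null array 3, 6 without Dicer wild-type array 1 and 2 without Dicer wild-type array 2.

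Mir363 led the falls, with 5.69, 5.82 and 5.75 in Dicer-null, against 7.08 and 7.37 in Dicer wild-type (-1.47, standard error 0.12, adjusted p = 1.21e-10). Mir505 gave 8.88, 9.02 and 8.94, against 10.18 and 10.33 (-1.30, adjusted p = 6.17e-08), and Mir15a gave 7.34, 7.22 and 7.17, against 8.45 and 8.50 (-1.23, adjusted p = 5.82e-13). The arrays of the lines did not overlap in these 3 members, as in 42 members that were higher and 87 that were lower (14.4% and 29.9%, against 32.6% and 28.7% of symbols). Mirlet7f-1 (-1.23), Mirlet7d (-1.16), Mir297b (-1.05), Mir130a (-1.0) and Mir15b (-0.89) followed, with adjusted p-values of 5.88e-06 or below. Mir15a and Mir15b carry the seed AGCAGCA, of whose 6 members 4 fell.

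By cluster, all 5 miR-17 to miR-92 hairpins fell in the Dicer-null line, with a median of -0.51 and the largest change in Mir19a (-0.82, adjusted p = 2.47e-07). Mir17hg fell by 0.65. Mir17 (-0.40) lost its call without either Dicer wild-type array (adjusted p = 0.0570 and 0.0533). In the miR-106a to miR-363 cluster 4 of 5 fell, including Mir106a (-0.88, adjusted p = 7.90e-08), and Mir92-2 gave -0.29 (adjusted p = 0.0626). The falls of Mir20b (-0.48) and Mir19b-2 (-0.39) were each lost without Dicer-null array 1 or 3 or either Dicer wild-type array (highest adjusted p = 0.115 and 0.207, both without Dicer wild-type array 2). All 3 let-7 hairpins of chromosome 13 fell, Mirlet7a-1 (-0.30) not without Dicer-null array 3 (adjusted p = 0.119) or Dicer wild-type array 1 (0.235), and Mirlet7g (-0.54, lost without Dicer wild-type array 2, adjusted p = 0.0713) and Mirlet7i (-0.32, lost without Dicer-null array 3 or either Dicer wild-type array, highest adjusted p = 0.162) fell beside them. In the miR-106b to miR-25 cluster Mir93 alone was called (0.20, adjusted p = 0.0435), and this was lost without Dicer-null array 2 (0.11, adjusted p = 0.305) or either Dicer wild-type array (0.142 and 0.146).

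Of 26 hairpins in the larger Dlk1-Dio3 cluster 16 fell, with a median of -0.34 and a lowest value of -0.83, and of the 8 in the cluster that holds Mir127, 1 fell, with a median of -0.19. Mir134 fell by 0.80 (adjusted p = 3.34e-08), while Mir666 gave 0.05 and Mir667 gave -0.14. In the larger cluster 0 were called in wild-type DICER1 against eGFP, 1 in the mutants against eGFP and 0 in eGFP against Dicer-null, with medians of 0.03, -0.03 and -0.06. The Sfmbt2 hairpins fell in 3 of 4 (Mir297b, Mir669b by 0.76 and Mir669c by 0.68), beside a difference of -2.81 in Sfmbt2 (adjusted p = 1.39e-17).

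Among the 8 largest rises in the Dicer-null line, Mir148a (0.46, adjusted p = 1.20e-04) kept its call when any single array was left out, and the other 7 did not. Mir152, a relative with the same seed, gave 7.22, 7.25 and 7.22 in Dicer-null, against 6.86 and 6.48 in Dicer wild-type (0.56, adjusted p = 0.00135). It lost its call without Dicer wild-type array 2 (0.37, adjusted p = 0.0911), and its host Copz2, a coatomer subunit gene, rose by 0.74 (adjusted p = 1.44e-06). Mir32 (0.40) was lost without any 1 of the 5 arrays (highest adjusted p = 0.190), and Mir23a (0.35) without any but Dicer-null array 3 (0.150). Mir205 (0.36) was lost without Dicer-null array 2 or Dicer wild-type array 2 (0.163), and Mir196a-1 (0.35) without Dicer-null array 2 or Dicer wild-type array 1 (0.163). Mir137 (0.30, highest adjusted p = 0.344) and Mir30d (0.28, highest adjusted p = 0.233) were lost without Dicer-null array 3 or Dicer wild-type array 2.

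The eGFP cells were last set against the untransduced Dicer-null line, 2 groups that lack Dicer alike. More members were higher than lower with eGFP: 55 were called higher and 10 lower (18.9% and 3.44%), against 14.7% and 19.6% of all symbols, and in either direction 22.3%, against 34.3%. With the minimum difference of 0.5 there were 29 and 1 (9.97% and 0.344%, against 3.95% and 4.68%, and in either direction 10.3%, against 8.64%). When arrays were centred on their medians, 45 were higher and 22 lower, so 67.2% of calls were higher, against 84.6% without centring. The vector and eGFP itself cannot be told apart in this comparison.

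Mir15a had the largest difference of any member in any comparison. It gave 9.61, 9.56 and 9.51 in eGFP, against 7.34, 7.22 and 7.17 in Dicer-null (2.31, standard error 0.071, adjusted p = 5.45e-19). In the mutants it ranged from 8.47 to 9.27 and in wild-type DICER1 from 8.86 to 9.12, so all transgene groups lay above the Dicer-null line. Mir16-1, the neighbour of Mir15a in Dleu2, rose by 0.59 (adjusted p = 1.71e-05), and Dleu2 by 0.36 (adjusted p = 0.0328).

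Mir130a (1.56, adjusted p = 1.60e-10), Mir135b (1.47, adjusted p = 2.16e-14), Mir18 (1.30, adjusted p = 1.10e-12), Mir181b-2 (1.28, adjusted p = 4.57e-11), Mir200b (1.21, adjusted p = 4.08e-08), Mir19a (1.14, adjusted p = 2.09e-10) and Mir301 (1.06, adjusted p = 5.05e-10) completed the 8 largest rises. Mir135b gave 7.89, 7.90 and 7.85 in eGFP, against 6.46, 6.27 and 6.49 in Dicer-null, while its host Lemd1 gave -0.10 (adjusted p = 0.346). Mir130a, Mir130b (0.43, adjusted p = 7.15e-04) and Mir301, the 3 members with the seed AGUGCAA in a mature sequence found, all rose. So did all 5 hairpins of miR-17 to miR-92, with Mir17hg (1.01, adjusted p = 2.85e-11), all 3 of miR-106b to miR-25 (0.40 to 0.56), all 3 of miR-182, miR-183 and miR-96 (0.35 to 0.80), and 2 of 5 of miR-106a to miR-363 (Mir363 by 0.96 and Mir106a by 0.77). The rise of Mir20a (0.33) was lost without Dicer-null array 3 or eGFP array 1 or 3 (highest adjusted p = 0.108), and under median centring (0.0530). All 3 let-7 hairpins of chromosome 13 rose (0.27 to 0.41), but none kept its call throughout. Mirlet7a-1 lost it without eGFP array 1, 2 or 3 or Dicer-null array 2 or 3 (highest adjusted p = 0.153), and Mirlet7d (0.125) and Mirlet7f-1 (0.145) without eGFP array 1 or 3 or Dicer-null array 2. Under median centring their adjusted p-values were 0.102 for Mirlet7a-1, 0.0565 for Mirlet7d and 0.0540 for Mirlet7f-1.

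The 10 members that fell with eGFP differed by 0.54 or less. Mir152 gave 6.65, 6.87 and 6.54 in eGFP, against 7.22, 7.25 and 7.22 in Dicer-null (-0.54, adjusted p = 8.53e-04), and Copz2 fell by 1.75 alongside (adjusted p = 6.40e-14). Mir505 (-0.45, adjusted p = 0.0104), Mir30e (-0.41, adjusted p = 5.03e-04) and Mir148a (-0.39, adjusted p = 3.19e-04) also fell. Mir140 (-0.44), Mir26a-1 (-0.36), Mir687 (-0.35) and Mir448 (-0.33) fell as well, but rested on single arrays. Mir140 was not called without eGFP array 2 or Dicer-null array 2 (highest adjusted p = 0.165), Mir26a-1 without Dicer-null array 1 (0.0520), Mir687 without eGFP array 2 or 3 or Dicer-null array 2 (0.130), and Mir448 without eGFP array 3 or Dicer-null array 1 or 3 (0.158).

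Genes of miRNA biogenesis and action were counted beside the hairpins, and 25 of 28 listed genes were measured. Between the mutants and wild-type DICER1, 10 were called higher and 6 lower, with a median of 0.01, while 46.1% of all symbols were called in either direction. Lin28a, whose protein binds the loop of let-7 precursors and blocks their processing, was 0.58 higher (standard error 0.051, adjusted p = 4.26e-10), and Lin28b was 0.53 higher (standard error 0.039, adjusted p = 1.17e-11). Tnrc6b, an Argonaute partner in silencing, was 0.30 higher (adjusted p = 3.26e-10). Drosha, the nuclear ribonuclease that cuts primary transcripts, was 0.18 higher (adjusted p = 0.00468), and Dicer1 was 0.17 lower. Dicer1 was lowest in the PGKnvA mutants (8.84 to 8.97 in D1709N and 8.97 to 9.01 in E1813Q). It gave 9.08 to 9.39 in the other mutant arrays and 9.26 to 9.44 in wild-type DICER1. In wild-type DICER1 against eGFP, 4 were higher and 9 lower (44.2% of all symbols were called), with Lin28a 1.65 higher (adjusted p = 2.13e-15), Lin28b 1.01 lower, Ago1 0.80 lower and Tnrc6b 0.80 lower. The Dicer-null line had 7 higher and 8 lower than Dicer wild-type (42.2% of all symbols were called), with Lin28a 2.35 lower (adjusted p = 4.33e-17) and Ago1 1.22 higher (adjusted p = 1.51e-14).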

How the data were processed

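The deposited table holds log2 expression values of 28 mouse gene arrays, made by RMA in Partek 6.6 per the submitters' processing notes, which name no genome build or further settings here. Probe sets were named through the platform annotation, and 61 that hold a miRNA beside other symbols were not used. Members, lists and clusters were chosen with earlier results of these data known. The miR-290 to miR-295 cluster was not analysed here.

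From these values, 19938 symbols were fitted together in limma 3.58.1 (R 4.3.3) with 1 mean per group and a term for the PGKnvA vector, using lmFit and eBayes with a mean trend, and p-values were adjusted by Benjamini-Hochberg over all symbols. Only wild-type DICER1 was measured with both vectors, and its 2 vector means are equal (within 7.5e-05). The PGKnvA term therefore leaves the differences almost unchanged, but the number of calls depends on it. Without the term, 19 members were called higher and 46 lower in the mutants against eGFP. The counts were 29 and 39 in wild-type DICER1 against eGFP, and 28 and 41 in the mutants against wild-type DICER1. They were 10 and 64 in Dicer-null against Dicer wild-type, and 55 and 13 in eGFP against Dicer-null. The mutants enter as the mean of the 5 mutant groups. The method was tested on simulated data. Other tables and figures used Python 3.11.15, pandas 2.3.3, numpy 2.4.6, matplotlib 3.10.9 and Biopython 1.88. The arrays obey 3 exact linear relations (singular values up to 0.00233, the next being 24.1), so adjusted p-values are approximate. The labels do not say whether arrays of a group come from separate cultures, so p-values measure only the spread between arrays, whose small number limits precision.

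Clusters are hairpins of 1 chromosome and strand within 10 kb of a neighbour in RefSeq (GRCm38.p6), and families share bases 2 to 8 of a mature miRNA. Families hold only members for which that mature sequence was found, so a family can lack measured relatives. The text names up to 8 members called in each direction per comparison by size, all members of the miR-17, miR-106a, miR-106b and let-7 groups, and up to 3 by mean level for other clusters. Mir677, Mir301b, Mir669c, Mir466 and the members of shared-mature or host pairs outside this rule were chosen after their values were seen. Same-numbered arrays were checked for pairing: deviations from the group means correlated over 0.1 in 11 of 35 pairs of same-numbered arrays (range -1.0 to 0.598). In E1705K and eGFP all 3 pairs did (0.217, 0.577 and 0.254), but in no comparison did all pairs, so the numbers were not taken to pair the samples. Alternatives included median centring, a filter at the 30th percentile, no vector term, a replicate block, an array set block, leaving out the PGKnvA arrays and leaving out each array.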

Additional observations from a re-analysis of the deposited data

Results flagged for a closer look

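In 108 checks of 54 members within groups of 4 or 6 arrays, 9 had 1 array far from the nearest other, and chance gives about 1 in 20. In D1709A, array 4 was low for Mir17 (6.74, nearest other 7.08) and Mir200b (5.96, nearest other 6.35), and array 3 was high for Mir106a (6.53, nearest other 6.45). In wild-type DICER1, array 4 was high for Mir25 (9.54, nearest other 9.39) and Mir669b (7.65, nearest other 7.19) and low for Mir505 (8.65, nearest other 9.05) and Mir92-2 (5.36, nearest other 5.65). Array 2 of that group was high for Mir137 (3.63, nearest other 3.46) and low for Mir93 (7.58, nearest other 7.66). Of these 9 values, 6 belong to array 4 of a group, and these arrays have deposited values tied by an exact relation (within 0.000133).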

How the results depend on the processing

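Of 2402 values of 128 named results under other settings, 2282 kept their direction and their side of the threshold, 119 lost the call (91 of them on leaving out 1 array) and 1 reversed, Mir20a in the mutants against eGFP without the PGKnvA arrays (0.0367). With a filter at the 30th percentile, 7 members were called higher in the mutants against wild-type DICER1, 6 higher and 16 lower in the mutants against eGFP, 11 lower in wild-type DICER1 against eGFP, 5 higher and 30 lower in Dicer-null against Dicer wild-type, and 29 higher and 5 lower in eGFP against Dicer-null, since fewer members were tested. Median centring gave 21 higher in Dicer-null against Dicer wild-type and 22 lower in eGFP against Dicer-null. Without the PGKnvA arrays 15 were higher in the mutants against wild-type DICER1; the cause was not tested. Leaving out each array in turn gave 21 to 30 higher and 33 to 42 lower in the mutants against wild-type DICER1, 11 to 22 and 32 to 42 in the mutants against eGFP, 21 to 32 and 27 to 34 in wild-type DICER1 against eGFP, 2 to 8 and 45 to 58 in Dicer-null against Dicer wild-type, and 45 to 53 and 7 to 12 in eGFP against Dicer-null. The replicate numbers were not taken to pair the samples. A replicate block gave 21 higher and 30 lower in the mutants against wild-type DICER1, 12 and 31 in the mutants against eGFP, 23 and 28 in wild-type DICER1 against eGFP, 7 and 53 in Dicer-null against Dicer wild-type, and 52 and 8 in eGFP against Dicer-null. Under it 9 named calls were lost: Mir32 (adjusted p = 0.0760), Mirlet7a-1 (0.0591), Mirlet7i (0.0506), Mir93 (0.0913) and Mir19b-2 (0.0649) in Dicer-null against Dicer wild-type, Mirlet7c-1 (0.108), Mir17 (0.238) and Mir20a (0.134) in the mutants against eGFP, and Mirlet7a-1 (0.0565) in eGFP against Dicer-null. Calls of members below the 30th percentile (182 of 291) rest on dim probe sets.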
